A study of Saccharomyces cerevisiae with 5 samples.

Results

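Chromatin rings of 4 origins of replication of budding yeast were compared by class. ARS305 and ARS315 are early-efficient (EE) and fire early in S phase in most cells, and ARS313 and ARS316 are late-inefficient (LI). All 4 lie on chromosome III. The origins were taken as the study classes them, and together they make up 40 of the 60 tables and 28147 of the 43459 molecules of the series, 15452 from EE and 12695 from LI origins. The remaining tables hold 2 spike-ins, a nucleosomal array reconstituted in vitro and a naked plasmid.

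The 5 libraries comprised 2 of isw2Δ cells (isw2Δ::ura3), 2 of ies6Δ cells (ies6Δ::his) and 1 of wildtype cells, labelled as replicate 2. Every strain was MATa with ura3Δ0, leu2Δ0, his3Δ1, met15Δ0 and bar1::kanMX4, and carried a cassette on chromosome I with LEU2, LexA-TAP under the TEF2 promoter and R recombinase under the GAL1-10 promoter. In each strain, recombination sites and LexA binding sites flanked a single origin with 3 nucleosomes on either side. Every library therefore pooled 4 strains, so that a difference between origins cannot be told apart from a difference between strains. Each ring also has its own DNA sequence. In wildtype the study reports a higher average methylation peak at the EE origins than at the LI origins. It also warns that its methylation calls depend on sequence context and says that its focus is on genotypes compared at the same sequence. A difference between origins therefore cannot be told apart from an effect of sequence on the calls either. For the isw2Δ strain of ARS313 the strain list of the study names a parent that it lists as the strain of ARS316, whereas its genotype and the labels name ARS313, and the values below follow the labels. Cells were arrested in G1 with α-factor, galactose (2%) induced excision of the rings, and the purified rings were methylated with EcoGII, M.CviPI and M.SssI before Nanopore sequencing.

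An origin carries a sequence bound by the origin recognition complex, which loads the replicative helicase in G1, and active yeast origins hold a nucleosome-free region (NFR) over this sequence between positioned nucleosomes. A methyltransferase reaches bare DNA and is kept out by a nucleosome, so that a methylated base reports accessibility on that single molecule. Isw2 is the ATPase of a remodeler that slides nucleosomes, in yeast often towards NFRs, whereas Ies6 belongs to the INO80 remodeler, which spaces and positions nucleosomes.

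All values below are levels, the share of methylated calls divided by the mean share on the nucleosomal array of the same library and strand, so that a level of 1 equals the array. Differences between the classes are given as the mean of the EE origins minus the mean of the LI origins on the log2 scale, unless another unit is named. The 20 combinations of origin and library held 985 to 1599 molecules each, other than ARS316 in ies6Δ with 176 and 575. The array was methylated at 8.75 to 12.8% of its bases in the mutant libraries and at 6.67 and 7.23% on the strands of the wildtype library. For the naked plasmid this was 32.6 to 35.2% in mutants and 24.9 and 25.1% in wildtype, the last from 52 reverse molecules against 1000 forward. The lower methylation of wildtype thus moves with every difference between the mutants and wildtype, and its part in them was not tested. A single wildtype library was analysed here, and its values have no replicate check. The study calls the libraries biological replicates, but the labels do not say whether they were separate cultures. P-values over libraries, and those for a changed class difference, rest on the spread between these libraries. P-values over origins, and those of the limma comparison of the classes per window, rest on the spread between origins of a class. With labels of the classes swapped within libraries, the exact permutation test over 5 libraries cannot go below a two-sided p of 0.0625, and with 2 origins against 2 the smallest p is 0.333. The test over libraries holds the same 4 origins fixed. It asks whether a difference recurs for these 4 rings, and cannot say whether other origins of the classes would differ.

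To show which DNA the comparison concerns, the stretches covered by the oligonucleotides of the study that lie nearest to each NFR are printed 5′ to 3′ on the forward strand of the ring, with the bases in capitals whose mean level over the 5 libraries was at least 2. Of 34 oligonucleotides tried, 16 were placed uniquely on a ring by the strand on which each of its bases was called.
ARS305 484: tttcatgtactgTccggTgT
ARS305 666: aacTTAcacgggggctaaaaa
ARS315 444: TgTgTgTTTgtatacTcTgTggg
ARS315 673: acacaagTgTTTTgccgctta
ARS313 455: TcAAAgaaaaggtgctgcTga
ARS313 635: gtgctaccTTttaagacggaaga
ARS316 548: cggcattaTcgtacacaacct
ARS316 685: AgAAAaTgTaGGcAAcGAAgAAc
The number after each origin is the first base covered, counted from the start of the ring, and the second oligonucleotide of each pair is the reverse complement of the stretch printed. The first 7 lie in the flanks, 4 to 72 bp outside the NFR, and the last lies inside the NFR of ARS316. In that oligonucleotide 15 of 23 bases were at level 2 or more, against 1 to 9 bases in the 7 flanking ones. Its mean level was 2.55 and 2.42 in isw2Δ, 2.39 and 2.69 in ies6Δ and 2.43 in wildtype, whereas the flanking sequences of all 4 origins ranged between 0.690 and 1.48. A pair that the study lists for ARS315 was placed on the ring of ARS305, neither of them printed here, and these 2 were left out of the averages. Over the other 14 sequences, an adenine on either strand was methylated in 19.03% of molecules on average (172 bases), a CpG cytosine in 9.08% (26 bases) and another cytosine in 2.98% (101 bases), so that the levels mostly report adenines.

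The first question was whether the NFRs of EE origins were more accessible than those of LI origins. Their mean level was higher in each of the 5 libraries. In both deletions, however, the difference was smaller than in the single wildtype library and, over all NFR positions, rested on ARS305. In isw2Δ, ARS305 had levels of 3.69 and 4.01 in the 2 libraries and ARS315 had 2.41 and 2.56, against 2.59 and 2.32 for ARS313 and 2.51 and 2.49 for ARS316. ARS315 was thus below both LI origins in the first library and above them in the second. In ies6Δ, ARS305 had 3.84 and 4.20 and ARS315 had 2.45 and 2.71, against 2.49 and 2.68 for ARS313 and 2.29 and 2.49 for ARS316. Here ARS315 was below ARS313 in the first library and above it in the second by less than the SE over molecules of either. The difference between classes was 0.32 ± 0.14 (SD, n = 2; 1.25-fold) in isw2Δ and 0.37 ± 0.02 (SD, n = 2; 1.29-fold) in ies6Δ. Without ARS305 it was 0.0028 in isw2Δ and 0.052 in ies6Δ, against 0.47 in wildtype.

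In wildtype, NFR levels were 3.15 at ARS305 and 2.35 at ARS315, against 1.44 at ARS313 and 2.00 at ARS316. Here the classes did not overlap, with a difference of 0.68 or 1.60-fold, and ARS315 as well as ARS305 stood above both LI origins. The exact permutation test over origins gave the smallest p possible, 0.333. The SE over molecules was 0.0449 to 0.0619, well below the distance between neighbouring origins.

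**Figure D1:**
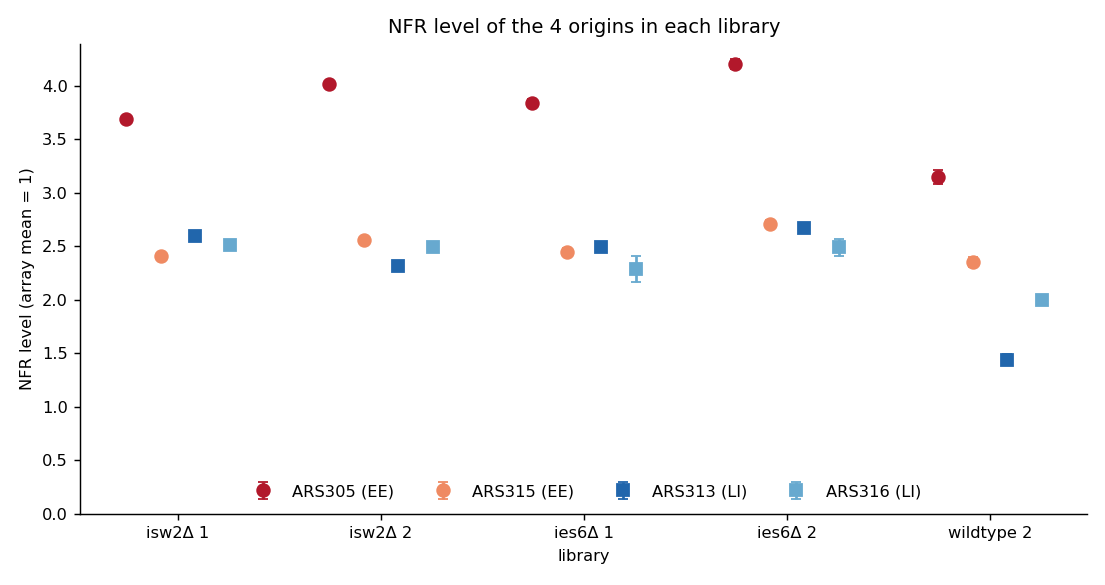
NFR level (array mean set to 1) of each origin in each library, with circles for EE and squares for LI origins and error bars for the SE over molecules. ARS305 is the highest in all 5 libraries, while ARS315 exceeds both LI origins by more than 0.3 in wildtype alone.

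Over the 5 libraries, the EE origins had higher NFR levels in 5 of 5, by 0.41 on average (1.33-fold; exact permutation test, two-sided p = 0.0625, the smallest possible; p = 0.0804 after Benjamini-Hochberg adjustment over 18 measures). In all, 14 of the 18 measures had the same sign in every library and hence these p-values. Without ARS305 the mean difference was 0.12 (exact permutation test, p = 0.25). The size also depended on the strand: on forward reads the difference was 0.13 in isw2Δ, 0.16 in ies6Δ and 0.49 in wildtype, and on reverse reads it was 0.49, 0.58 and 0.84. Among positions methylated in at least 5% of molecules it was 0.53 in isw2Δ, 0.58 in ies6Δ and 0.90 in wildtype. These positions made up 81.1% of the NFR at ARS305 and 72.5% at ARS315, against 87.8% at ARS313 and 89.2% at ARS316. ARS305 was not left out under this filter, and the part of base content in the levels was not tested.

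Of the 4 origins, ARS313 differed most between the mutants and wildtype. Relative to wildtype, the NFR of ARS313 was higher by 0.77 ± 0.11 in isw2Δ and 0.84 ± 0.07 in ies6Δ (log2, SD, n = 2 each), and that of ARS316 by 0.32 ± 0.01 and 0.26 ± 0.09. Among EE origins, ARS305 was higher by 0.29 ± 0.09 in isw2Δ and 0.35 ± 0.09 in ies6Δ, and ARS315 by 0.08 ± 0.06 and 0.13 ± 0.10. Both mutants are set against the same wildtype library here, and with 2 libraries against 1 the smallest p is 0.333.

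The highest 30 bp of the NFR differed by more than the whole NFR in each library. These peaks reached 4.81 and 5.39 at ARS305 and 3.51 and 3.60 at ARS315 in isw2Δ, against 3.33 and 2.91 for ARS313 and 2.97 and 2.88 for ARS316. In ies6Δ they reached 5.27 and 5.79 at ARS305 and 3.77 and 4.28 at ARS315, against 3.32 and 3.68 for ARS313 and 2.74 and 2.87 for ARS316. In wildtype they were 4.20 and 3.63 at the EE origins, against 2.08 at ARS313 and 2.46 at ARS316. By this measure the classes did not overlap in any library, and the difference was 0.50 in isw2Δ, 0.59 in ies6Δ and 0.79 in wildtype. ARS315 therefore held a narrow stretch above the LI origins even where its NFR as a whole was level with theirs.

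**Figure D2:**
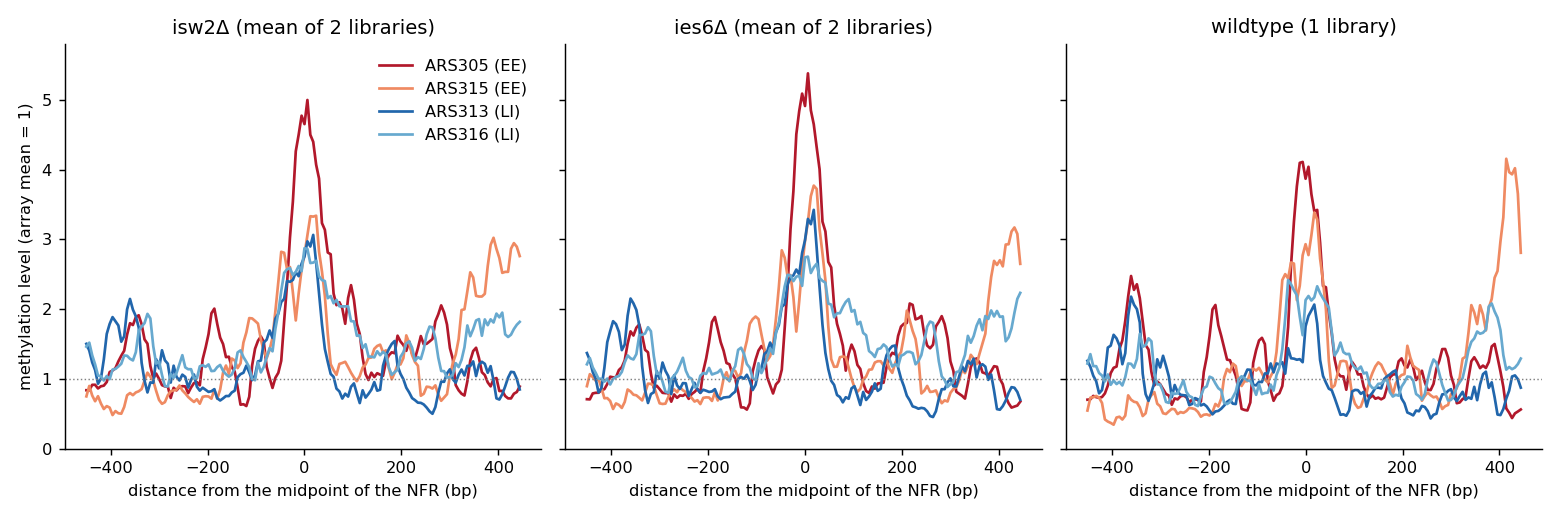
Running level over 30 bp (array mean set to 1, dotted line) against the distance from the midpoint of the NFR in bp, for the 4 origins in isw2Δ, ies6Δ and wildtype. ARS305 is the tallest at the midpoint in each panel, the NFR peak of ARS313 is the lowest in wildtype (2.08), and ARS315 is high again beyond 390 bp.

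Accessible width went the other way between genotypes. The stretch around the peak with a level of at least 1.5 spanned 162 and 164 bp at ARS305 and 117 and 121 bp at ARS315 in isw2Δ, against 108 and 107 bp for ARS313 and 178 and 188 bp for ARS316. In ies6Δ it spanned 118 bp in both libraries at ARS305 and 114 and 119 bp at ARS315, against 104 and 102 bp for ARS313 and 174 and 196 bp for ARS316. In wildtype it was 95 and 102 bp at the EE origins, against 31 bp at ARS313 and 104 bp at ARS316. The mean EE stretch minus the mean LI stretch was -4.25 bp in isw2Δ, -26.8 bp in ies6Δ and 31.0 bp in wildtype. In all 5 libraries the widest stretch was that of ARS316, an LI origin.

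All rings share a stretch of 47 bases at 1 end, found by its common pattern of called strands (in ARS315 reversed at the far end) and taken here as part of the inserted recombination cassette. Its level was 1.63 to 2.75 at EE rings, against 1.87 to 3.33 at LI rings. The difference between the classes was -0.07 in isw2Δ, -0.30 in ies6Δ and -0.18 in wildtype, and so had the opposite sign to the NFR in all 5 libraries. With the cassette in place of the array as the divisor, a choice made after the data were seen, the NFR difference was 0.46 over the 5 libraries, and why the cassette differed between rings was not tested.

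The second question was whether the nucleosomes beside the NFR protected DNA to a different extent in the classes, for which a lower level means more protection. The flanks were the 150 bp on either side of the NFR. In isw2Δ the flanks had levels of 1.42 and 1.45 at ARS305 and 1.21 and 1.30 at ARS315, against 1.06 and 1.10 for ARS313 and 1.33 and 1.35 for ARS316. In ies6Δ they had 1.27 and 1.21 at ARS305 and 1.26 and 1.14 at ARS315, against 1.08 and 0.957 for ARS313 and 1.34 and 1.40 for ARS316. ARS313 was the most protected origin in all 5 libraries, while ARS316 was the least protected in both ies6Δ libraries, so the classes overlapped in every mutant library. In wildtype the levels were 1.09 at ARS305 and 0.977 at ARS315, against 0.858 at ARS313 and 0.946 at ARS316, and the EE flanks were less protected, without overlap, by 0.20 on the log2 scale.

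The flank difference was 0.16 ± 0.03 in isw2Δ and 0.05 ± 0.04 in ies6Δ (SD, n = 2 each). It was positive in 5 of 5 libraries with a mean of 0.12 (exact permutation test, p = 0.0625; adjusted p = 0.0804), but it was -0.042 without ARS313 and -0.041 with each ring divided by its own mean. With the shared cassette as the divisor, added after the data were seen, it was 0.28 over the 5 libraries and 0.31 in ies6Δ. The sign of the difference thus depended on a single LI origin and on the divisor, and its size on the divisor. The mean of a ring includes its NFR, and ring levels were higher at EE origins by 0.16 over the 5 libraries. Division by the ring mean takes this off the flank difference, so the result is no separate measure of protection.

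The sides of the NFR were unequal. On the side before the NFR, the difference was 0.10 in isw2Δ, 0.08 in ies6Δ and 0.26 in wildtype, and it was positive in 5 of 5 libraries (exact permutation test, p = 0.0625). On the side after it, the difference was 0.21, 0.04 and 0.14, and positive in 4 of 5 (exact permutation test, p = 0.125). There ARS305 had levels of 1.64 and 1.62 in isw2Δ, 1.37 and 1.30 in ies6Δ and 1.01 in wildtype, and ARS316 had 1.48 and 1.54, 1.46 and 1.68, and 1.04. In the mutants these origins, from different classes, were the most accessible on this side, and in wildtype both stood near the level of the array. The next 150 bp outward differed by 0.06, 0.04 and 0.09.

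The best protected 30 bp within the flanks lay lower at EE origins on average. Its level was 0.532 and 0.565 at ARS305 and 0.692 and 0.631 at ARS315 in isw2Δ, against 0.589 and 0.582 for ARS313 and 0.925 and 0.981 for ARS316. In ies6Δ it was 0.546 and 0.493 at ARS305 and 0.704 and 0.589 at ARS315, against 0.620 and 0.558 for ARS313 and 0.923 and 0.867 for ARS316. In wildtype it was 0.501 and 0.472 at the EE origins, against 0.461 at ARS313 and 0.633 at ARS316. The difference was negative in 5 of 5 libraries with a mean of -0.29 (exact permutation test, p = 0.0625), yet it came to 0.022 without ARS316, the origin with the highest minimum in every library.

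The contrast of an NFR with its own flanks was 2.60 and 2.76 at ARS305 and 1.99 and 1.96 at ARS315 in isw2Δ, against 2.44 and 2.11 for ARS313 and 1.88 and 1.84 for ARS316. In ies6Δ it was 3.01 and 3.48 at ARS305 and 1.95 and 2.37 at ARS315, against 2.32 and 2.80 for ARS313 and 1.71 and 1.78 for ARS316. In wildtype the ratio was 2.89 at ARS305 and 2.41 at ARS315, against 1.68 at ARS313 and 2.11 at ARS316. The log2 difference between the classes was 0.16 ± 0.11 in isw2Δ, 0.32 ± 0.06 in ies6Δ and 0.49 in wildtype, with a mean of 0.29 over the 5 libraries (exact permutation test, p = 0.0625). The mean was 0.059 without ARS305 (exact permutation test, p = 0.75) and 0.16 without ARS316 (p = 0.25 in the same exact test). It was 0.14 on forward reads (exact permutation test, p = 0.25) and 0.18 with the cassette as the divisor (p = 0.125 in the same exact test). In every mutant library ARS313 had a higher contrast than ARS315, whereas in wildtype it had the lowest of all.

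**Figure D3:**
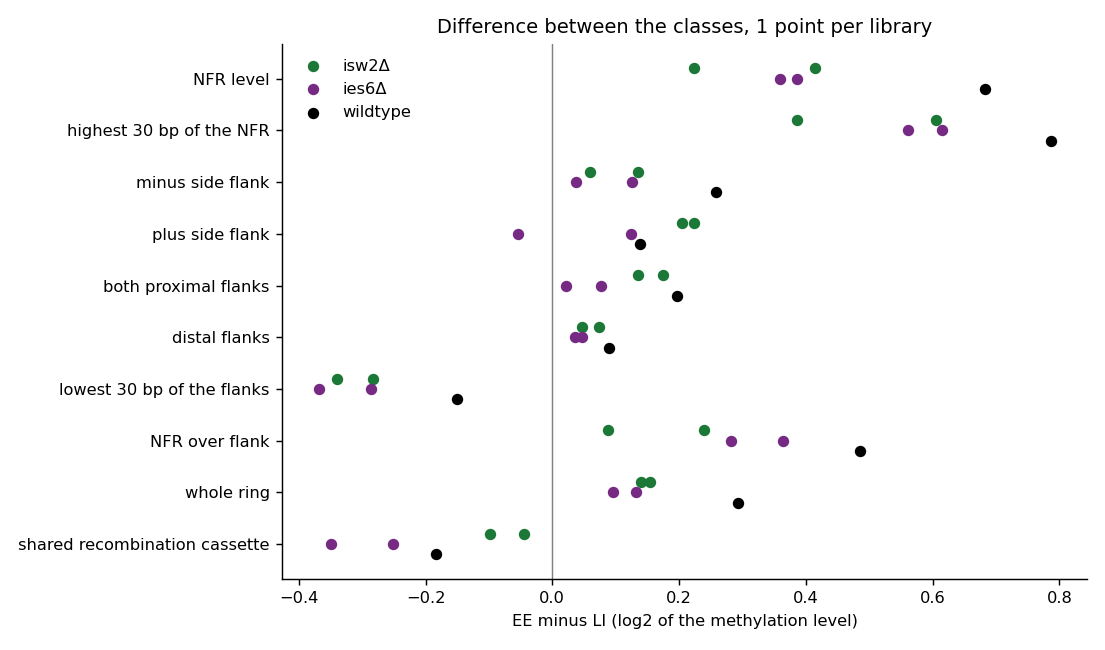
EE minus LI difference in log2 level for 10 measures, with a point per library (isw2Δ, ies6Δ, wildtype). NFR measures lie to the right of 0 and furthest right in wildtype (0.68 for the NFR level). The lowest flank level (mean -0.29) and the shared cassette (-0.07 in isw2Δ, -0.30 in ies6Δ and -0.18 in wildtype) lie to the left, and the mean flank level (0.12) lies between them.

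To locate the differences along the ring, rings were aligned on the midpoint of the NFR and cut into 30 windows of 30 bp, 15 on each side, and the classes were compared with limma on log2 levels. No window differed by class after Benjamini-Hochberg adjustment in isw2Δ (0 of 30 tested, 0.0%), in ies6Δ (0.0%) or in wildtype (0.0%), and limma called 0 at an unadjusted p under 0.05 as well. The EE mean was higher in 18, 13 and 17 of the 30 windows. The greatest difference in size was -0.76 in isw2Δ and -1.13 in wildtype, both in the window from -420 to -390 bp (adjusted p = 0.916 and 0.709), and 0.95 in ies6Δ in the window from 210 to 240 bp (adjusted p = 0.826).

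Beyond single peaks, the arrangement of accessible stretches differed from origin to origin. In a single window, centred at -105 bp, both EE origins were above both LI origins in all 5 libraries. ARS305 had levels of 1.24, 1.47, 1.28, 1.20 and 1.37 there and ARS315 had 1.89, 1.74, 1.89, 1.82 and 1.11 (isw2Δ, ies6Δ, wildtype), against 0.968, 1.04, 0.966, 0.776 and 0.905 at ARS313 and 0.952, 1.02, 0.944, 1.03 and 0.831 at ARS316. This window was chosen for its lack of overlap and is described without a test (limma passed 0.0% of windows by class). By library, both EE origins lay above both LI origins in 1 and 4 of 30 windows (isw2Δ), 5 and 5 (ies6Δ) and 6 (wildtype). They lay below both in 1 and 5, 8 and 3, and 4. Between 390 and 420 bp ARS315 was the most accessible origin of all, at 2.61 and 2.73 in isw2Δ, 2.56 and 2.62 in ies6Δ and 2.86 in wildtype, and ARS316 followed at 1.79 and 1.88, 1.91 and 1.74, and 1.36. ARS305 had levels of 0.808 to 1.02 there and ARS313 had 0.440 to 0.718, so both classes held a high and a low member. The study marks the accessible promoter of Tvs1 downstream of ARS315 and reports that its NFR was broader in isw2Δ. The high stretch of ARS315 lies on that side, but chromosomal coordinates were not used to place the promoter.

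The class difference of each of the 5 libraries was also compared between genotypes per window, as an interaction in limma. The spread came from the mutant pairs and was pooled over windows, so that every window had the same SE. The lone wildtype library was assumed to vary like the mutants, which could not be checked, and calls against it compare the mutants with that library and not with wildtype cells in general. On these terms limma called 3 of 30 windows (10.0%) between isw2Δ and the wildtype library, 3 (10.0%) between ies6Δ and the wildtype library and 3 (10.0%) between isw2Δ and ies6Δ, the last with 2 libraries on each side. At an unadjusted p under 0.05, 8, 7 and 7 windows passed. The 30 bp just before the midpoint, inside the NFR, were called for both mutants. Its class difference was 0.25 in isw2Δ and 0.28 in ies6Δ, against 0.91 in wildtype, a mutant minus wildtype value of -0.67 for isw2Δ and of -0.64 for ies6Δ. Here ARS313 had levels of 2.67 and 2.38 in isw2Δ and 2.48 and 2.61 in ies6Δ, against 1.27 in wildtype, and ARS316 had 2.58 and 2.67, and 2.47 and 2.56, against 2.01 in wildtype. ARS305 had 4.19 and 4.62, and 4.54 and 4.89, against 3.92, while ARS315 had 1.88 and 2.39, and 1.94 and 2.04, against 2.32. The mutants share the wildtype library, so the pair of calls is not independent. Without replicate 1 of isw2Δ no window was called between isw2Δ and wildtype, and without ARS313 none was in that comparison and 1 was for ies6Δ. Without replicate 2 of ies6Δ, 1 window passed against wildtype. With each ring divided by its own mean, on reverse reads or with at most 80 molecules per strand, 0 windows passed in any of the 3 comparisons, with 3 to 9 at an unadjusted p under 0.05 in limma.

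The remaining called windows lay 90 bp or more from the midpoint. Those at 330 to 360 and 390 to 420 bp lie on the side of ARS315 where the study marks the Tvs1 promoter. The class difference in isw2Δ minus that in the wildtype library was -0.58 at 390 to 420 bp and -0.45 at -390 to -360 bp, and for ies6Δ it was -0.65 at 330 to 360 bp and 0.52 at -420 to -390 bp. At 330 to 360 bp ARS315 had levels of 2.45 and 2.58 in isw2Δ and 1.37 and 1.28 in ies6Δ, against 2.01 in wildtype, so that the mutants lay on either side of wildtype, and ARS313 had 1.38 and 1.23, and 1.41 and 1.25, against 0.844. Between the mutants, isw2Δ minus ies6Δ, the class difference was higher by 0.48 in that window and by 0.44 at 90 to 120 bp, and it fell by 0.63 at 210 to 240 bp (SE 0.124, adjusted p = 1.3e-04). In the last of these ARS305 had 1.32 in both isw2Δ libraries, against 1.91 and 1.97 in ies6Δ. At 90 to 120 bp ARS305 had 1.97 and 2.08 in isw2Δ, against 1.36 and 1.32 in ies6Δ. Between the mutants, 1 window passed without replicate 2 of isw2Δ and 0 passed without replicate 2 of ies6Δ.

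**Figure D4:**
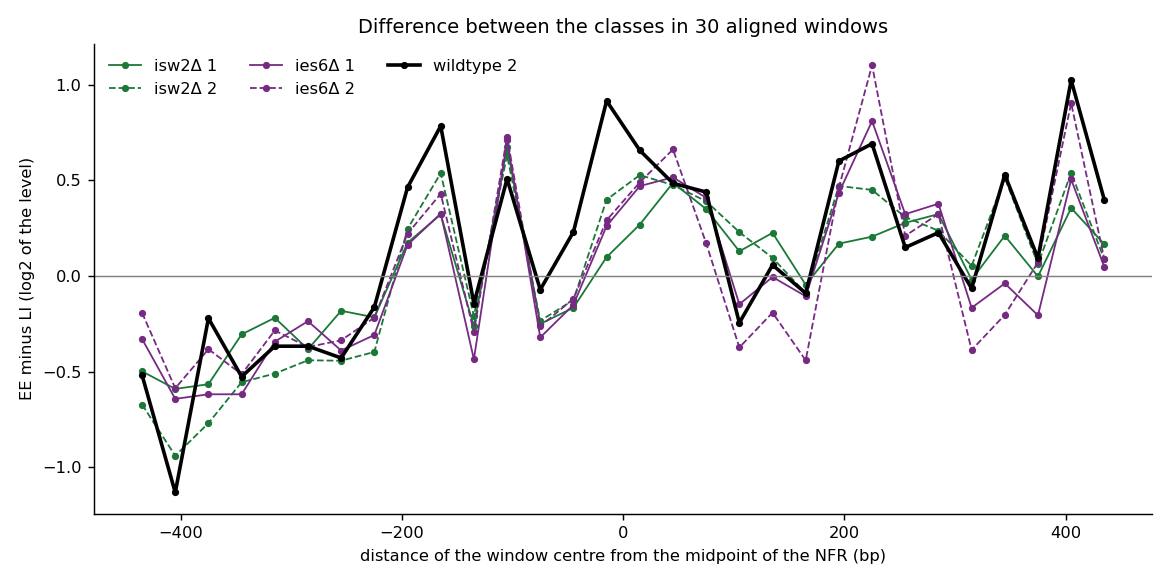
EE minus LI difference in log2 level in 30 windows of 30 bp, by distance of the window's centre from the midpoint of the NFR in bp, with a line per library. Wildtype stands above the mutants just before the midpoint (0.91). All 5 lines lie above 0 at -105 bp, as they do in other windows, among them those at -195, -165, 15 and 45 bp.

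The third question concerned variation from molecule to molecule. The share of molecules with an NFR level of at least 2, called open here, was 88.9 and 91.7% at ARS305 and 61.8 and 69.3% at ARS315 in isw2Δ, against 64.4 and 56.3% for ARS313 and 63.3 and 63.0% for ARS316. The ies6Δ libraries had 86.7 and 85.9% at ARS305 and 62.6 and 68.1% at ARS315, against 59.4 and 59.6% for ARS313 and 54.6 and 52.7% for ARS316. In wildtype the share was 61.7% at ARS305 and 53.4% at ARS315, against 25.8% at ARS313 and 40.2% at ARS316. Wilson intervals (95%, counting error only) reached at most 2.73 points to either side, other than ARS316 in ies6Δ with 7.28 and 4.07 points. The classes did not overlap in any library other than the first of isw2Δ, in which ARS315 lay below both LI origins. The difference was 16.2 ± 6.57 points in isw2Δ, 19.3 ± 2.25 points in ies6Δ (SD, n = 2 each) and 24.6 points in wildtype, and positive in 5 of 5 libraries with a mean of 19.1 points (exact permutation test, p = 0.0625). Without ARS305 the mean was 9.10 points (exact permutation test, p = 0.125), on forward reads it was 12.1 points and on reverse reads 26.1 points. With the naked plasmid as the divisor, for which a level of 2 is 2 times the share on naked DNA, it was 1.02 points.

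By the shares of molecules in ranges of NFR level, ARS305 stood apart from the rest in the mutants. Molecules at exactly 0 were counted apart, so that the range between 0 and 1 leaves them out. The other ranges were 1 unit wide, except that from 4 to 6 and that of 6 or more. In isw2Δ, 42.8 and 50.4% of its molecules had an NFR level between 4 and 6, and in ies6Δ 43.7 and 43.1%, whereas at ARS315 this share was 7.95 and 11.9%, and 10.9 and 18.8%. LI origins had 14.4 to 19.3% of molecules in this range in isw2Δ and 16.9 to 19.8% in ies6Δ, so that ARS315, an EE origin, had the fewest molecules at these levels in 3 of the 4 mutant libraries. In wildtype ARS305 was spread widely, with 6.89% of molecules at exactly 0, 20.2% between 0 and 1, 22.8% between 4 and 6 and 14.9% at 6 or more. At ARS313 17.8% of wildtype molecules were at exactly 0, a further 35.5% lay between 0 and 1, and 7.0% lay between 4 and 6.

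**Figure D5:**
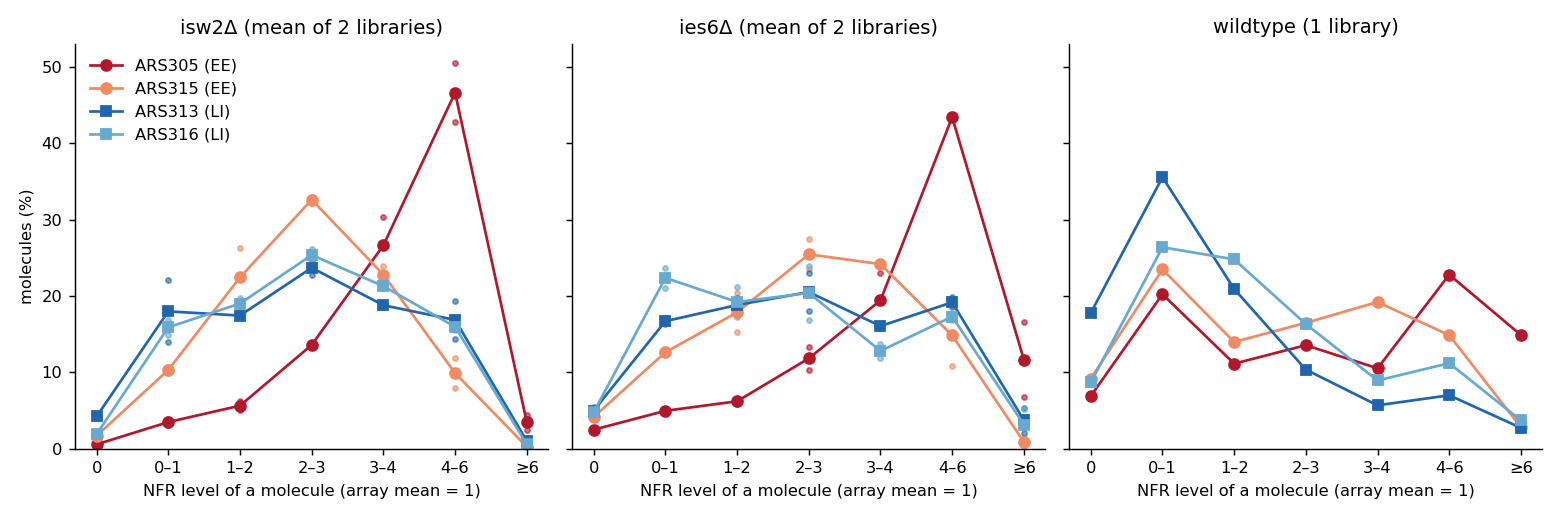
Percentage of molecules by the level of their NFR (array mean set to 1) at the 4 origins in isw2Δ, ies6Δ and wildtype, with small points for single libraries and lines for their mean. Molecules at exactly 0 are shown apart from those between 0 and 1. Ranges between 0 and 4 span 1 unit each and that from 4 to 6 spans 2 units, so heights are not comparable across them. ARS305 holds 42.8 to 50.4% of molecules from 4 to 6 in the mutants, more than any other origin, and ARS313 holds 35.5% between 0 and 1 in wildtype.

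Molecules with no methylated base in the NFR made up 0.128 to 4.42% at EE origins in the mutants, against 1.86 to 5.45% at LI origins. In wildtype they made up 6.89% at ARS305 and 9.18% at ARS315, against 17.8% at ARS313 and 8.68% at ARS316. The difference was -1.94 points in isw2Δ, -1.55 points in ies6Δ and -5.18 points in wildtype, and in wildtype ARS313 stood apart from the other origins.

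The coefficient of variation (CV) of the NFR's methylated share over molecules was lower at both EE than at both LI origins in every library. In isw2Δ it was 0.360 and 0.333 at ARS305 and 0.474 and 0.460 at ARS315, against 0.553 and 0.642 for ARS313 and 0.553 and 0.583 for ARS316. In ies6Δ it was 0.425 and 0.446 at ARS305 and 0.544 and 0.540 at ARS315, against 0.625 and 0.645 for ARS313 and 0.668 and 0.729 for ARS316. In wildtype the CV was 0.772 at ARS305 and 0.749 at ARS315, against 1.13 at ARS313 and 0.904 at ARS316. The difference was -0.18 ± 0.06 in isw2Δ, -0.18 ± 0.02 in ies6Δ and -0.26 in wildtype, with a mean of -0.19 (exact permutation test, p = 0.0625). Unlike the mean level, this measure put ARS315 apart from the LI origins in the mutants too. A CV also moves with the mean share, and the part of the mean was not tested. Each class holds an NFR of 90 bp and one of 120 bp.

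Positions along a molecule were correlated. The correlation was averaged over all pairs of positions, so local stretches and whole molecules both enter it and were not separated. The mean correlation between positions of the same ring was 0.0719 and 0.0575 at ARS305 and 0.0504 and 0.0389 at ARS315 in isw2Δ, against 0.0716 and 0.0612 for ARS313 and 0.0844 and 0.0699 for ARS316. In ies6Δ it was 0.0628 and 0.0548 at ARS305 and 0.0441 and 0.0367 at ARS315, against 0.0559 and 0.0450 for ARS313 and 0.0824 and 0.0702 for ARS316. In wildtype it was 0.0616 and 0.0340 at the EE origins, against 0.0438 and 0.0633 at the LI origins. ARS315 was the lowest in all 5 libraries, and ARS305 lay between the LI origins in 4 of them. The difference was -0.017 in isw2Δ, -0.014 in ies6Δ and -0.0058 in wildtype, with a mean of -0.013 over the 5 libraries (exact permutation test, p = 0.0625). Without ARS315 the mean was -0.0030 and without ARS316 it was -0.0042 (exact permutation test, p = 0.375 for each), and in wildtype the difference came to 0.0080 and 0.0040.

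Within the NFR alone, the correlation between positions differed by -0.015 in isw2Δ, -0.0007 in ies6Δ and 0.031 in wildtype, with no common direction (exact permutation test over 5 libraries, p = 1.0). The correlation over molecules of a library between the NFR's and the flanks' methylated share was 0.331 to 0.471 at EE origins in the mutants, against 0.404 to 0.543 at LI origins. In wildtype it was 0.587 at ARS305 and 0.445 at ARS315, against 0.537 at ARS313 and 0.573 at ARS316. These correlations are over reads of the same library, which also share the efficiency with which a molecule was methylated.

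Molecules with an open NFR also had higher flank levels at each origin. Both values come from the same read and the flanks adjoin the NFR, so the efficiency with which a molecule was methylated enters both. Its part was not tested. The share called open ran from 25.8% at ARS313 in wildtype to 91.7% at ARS305 in isw2Δ, so the ratios compare unlike splits. The flank level of open molecules over that of the others was, in isw2Δ, 1.73 and 1.65 at ARS305 and 1.63 in both libraries at ARS315, against 1.90 and 1.91 for ARS313 and 1.86 and 1.91 for ARS316. In ies6Δ it was 1.90 and 1.58 at ARS305 and 1.61 and 1.62 at ARS315, against 1.69 and 1.74 for ARS313 and 2.22 and 1.83 for ARS316. In wildtype the ratio was 3.13 at ARS305 and 1.99 at ARS315, against 2.50 at ARS313 and 2.99 at ARS316. The ratio was highest at ARS305 in wildtype, while in isw2Δ both EE origins were below both LI origins in each library.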

How the data were processed

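The deposited tables, 1 per library, locus and strand, hold fractions of exactly 0 or 1 with a molecule per line and a ring position per column, and the authors did not normalize them. They called bases with Megalodon, guppy and minimap and set thresholds on unmethylated and fully methylated plasmid, which could not be varied here, and the labels name the genome build R64. The authors describe m6A and CpG calls alone. At the placed oligonucleotides, however, cytosines outside CpG were called in 2.98% of molecules on average and in up to 24.4% at a single base. Whether this comes from the calls or from the placement was not tested. A single incomplete line was dropped. Each position was called on 1 strand, so both strands were joined into a profile and divided by the array mean of the library and strand.

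The NFR windows came from the profile figure of the paper, which was drawn partly from these data, and members, regions and lists were chosen with earlier results of these data known. NFRs spanned ring positions 511 to 600 in ARS305, 481 to 600 in ARS315, 541 to 630 in ARS313 and 601 to 720 in ARS316. Named windows were those past an adjusted p of 0.05, or the largest where none passed. Software comprised limma 3.58.1 in R 4.3.3 and pandas 2.3.3, SciPy 1.17.1, NumPy 2.4.6 and Matplotlib 3.10.9 in Python 3.11.15. Classes were compared over libraries or origins with two-sided exact permutation tests and per window with limma. The limma spread was pooled over windows for a changed class difference and for the classes in isw2Δ. For the classes in ies6Δ and wildtype it was pooled in part, with SEs of 0.505 to 0.657 and of 0.310 to 1.06. The limma and correlation scripts were tested on simulated data. Alternatives covered the divisor, strand, depth, site filter, region, window size, alignment, and each origin or mutant library left out. Chromosomal coordinates were not used here.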

Additional observations from a re-analysis of the deposited data

Results flagged for a closer look

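The change in the class difference between genotypes, compared as an interaction in limma, was called in 9 cases, 6 of them against the single wildtype library, whose own spread could not be measured. For isw2Δ minus wildtype it was -0.666 in the 30 bp before the NFR midpoint, -0.576 at 390 to 420 bp and -0.446 at -390 to -360 bp. For ies6Δ minus wildtype it was 0.516 at -420 to -390 bp, -0.65 at 330 to 360 bp and -0.638 before the midpoint. For isw2Δ minus ies6Δ it was 0.483 at 330 to 360 bp, 0.439 at 90 to 120 bp and -0.627 at 210 to 240 bp.

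Further measures had opposite signs in every library of the genotypes compared, and these differences were not tested. The class difference in the correlation between positions of the NFR was -0.0154 in isw2Δ, against 0.0314 in wildtype, and -0.0007 in ies6Δ, where the libraries differed in sign. The share of molecules with unmethylated flanks differed by -0.385 points in isw2Δ, against 0.972 points in wildtype, and by 0.051 points in ies6Δ, where the libraries differed in sign. The stretch at level 1.5 or more differed by -4.25 bp in isw2Δ and by -26.8 bp in ies6Δ, against 31.0 bp in wildtype.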

How the results depend on the processing

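The mean NFR difference over the 5 libraries stayed positive under 20 alternatives, between 0.12 and 0.71, with the lower end without ARS305, and the mean ring correlation difference stayed negative under 19, between -0.024 and -0.0030, with the upper end without ARS315. Leaving out each mutant library in turn gave 0.41 to 0.46 for the NFR, 0.11 to 0.15 for the flanks and -0.014 to -0.013 for the correlation.

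The flank difference turned to -0.041 with the mean of the same ring as divisor (minus side -0.029, plus side -0.042, distal -0.10, ies6Δ -0.062, wildtype -0.098). Without ARS313 it turned to -0.042 (plus side -0.17, distal -0.22, isw2Δ -0.0026, ies6Δ -0.17). Flanks of 3 windows gave -0.043 on the minus side and -0.0091 in ies6Δ. The distal flank also turned to -0.00033 with positions methylated in at least 5% of molecules, to -0.056 with flanks starting 1 window further out and to -0.082 without ARS305. The lowest flank level turned to 0.13 on forward reads and to 0.022 without ARS316.

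The wildtype ring correlation difference turned to 0.0080 without ARS315 and 0.0040 without ARS316, and the flank correlation difference to 0.015 without ARS316. The NFR correlation difference turned to 0.036 on reverse reads, 0.019 with 80 molecules per strand, 0.013 with the 5% filter, 0.012 without ARS315, 0.0040 without ARS313 and -0.00078 to 0.0056 without single mutant libraries. The difference in unmethylated flanks turned to -0.82 on reverse reads, -0.56 with 80 molecules, -0.032 without ARS315 and -0.44 without ARS313.

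Counts of windows that differed by class were 0 under all 20 alternatives in each genotype. Windows with a changed difference, 3 in each comparison, were 0 with the mean of the same ring, on reverse reads and with 80 molecules in all 3 comparisons. For isw2Δ minus wildtype they were 1 of 18 with windows of 50 bp and 6 of 29 aligned on the highest 30 bp. Of 30 windows, they were 1 on forward reads, 5 without ARS305, 8 without ARS315, 0 without ARS313 and 5 without ARS316. Without single mutant libraries they were 0 to 3. For ies6Δ minus wildtype they were 5 of 44 with windows of 20 bp. Of 30 windows, they were 5 without ARS305, 1 without ARS313 and 1 to 3 without single libraries. For isw2Δ minus ies6Δ they were 0 on forward reads, 0 without ARS313 and 0 to 3 without single libraries. With the replicate block, 1 window passed for isw2Δ, 2 for ies6Δ and 3 between mutants. Deviations of libraries with the same replicate number did not correlate (-0.0022 over 30 windows), so the number was not used to pair them. The cause of these changes was not tested. A restriction to adenines was not run, since no genome was used. Division by the shared cassette was added after the data were seen.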
